A study of Caenorhabditis elegans with 4 samples.

Results

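The genes named linc followed by a number are long intergenic non-coding RNA genes of Caenorhabditis elegans. All 170 genes of the count tables whose name has that form were taken, of 46881 genes listed, by the form of the name alone. Long intergenic non-coding RNAs are transcribed from the stretches between protein-coding genes, are often spliced and polyadenylated like messenger RNAs, and hold no long open reading frame. Most are made in small amounts, and few have a known function. In C. elegans some act on a gene beside them and others as free RNAs, and the nearest protein-coding gene is given here for the linc genes described one by one. One known case is linc-73, whose loss in worms raises the transcript of its neighbour unc-104, a kinesin motor gene of neurons.

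Wild-type Bristol N2 hermaphrodites were kept on 1 of 2 bacterial foods. MI-OMU01 is a Bacillus subtilis isolate of the natto type, and OP50 is the Escherichia coli strain on which laboratory worms are usually raised. In both groups the worms were aged 3 days at the start, fed for 1 day on their lawn, and harvested as pools of about 200. Poly(A) RNA was sequenced from 2 libraries per group, with 17601286 and 24381952 counted reads in the MI-OMU01 libraries and 16962082 and 17327035 in the OP50 libraries. Separate cultures are not stated for the 2 libraries of a group, and each p-value therefore rests on a spread that may be technical. Transcripts without a poly(A) tail are largely outside what these libraries measure. All 6 yolk genes and all 8 oocyte markers had reads in every library, with summed oocyte levels of 3542 and 3127 CPM (read counts scaled to a common library size) in the MI-OMU01 libraries and 3737 and 2860 CPM in the OP50 libraries, and the 5 male markers together stayed between 1.52 and 2.80 CPM in all 4.

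The linc genes lie on all 6 chromosomes, with 34 on chromosome II, 33 on each of V and X, 26 on IV and 22 on each of I and III. Their summed exon length ran from 101 to 4183 bases with a median of 452.5, against a median of 1107 for protein-coding genes. The tables give 54 of them 1 exon and 116 more than 1. The nearest protein-coding gene was at a median distance of 658.5 bases, and for 137 of 170 it lay within 2000 bases. The largest distance was 11549 bases. Counting each linc gene by its nearest protein-coding gene, 50 stood upstream of it on the same strand, 47 were divergent from it, 29 were convergent with it and 19 stood downstream on the same strand. The remaining 25 had spans that overlapped the protein-coding gene, 13 on the opposite strand and 12 on the same strand. Exons were shared with another listed gene of any kind in 31 linc genes and with a protein-coding gene in 8.

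Reads were found for 120 of the 170 linc genes in at least 1 library, and 50 had none. A read was present in 99 and 94 linc genes of the MI-OMU01 libraries and in 81 and 86 of the OP50 libraries, so both MI-OMU01 counts were above both OP50 counts. Thinning each library to the smallest total would leave an expected 98.0 and 89.1 in MI-OMU01 and 81 and 85.7 in OP50, and the order of the groups stayed. This order was not particular to the linc genes. Over all listed genes, without thinning, 19831 and 20516 had a read in MI-OMU01 and 19000 and 18952 in OP50. At least 10 reads were reached by 25 and 30 linc genes in the MI-OMU01 libraries and by 17 and 19 in the OP50 libraries. A read in all 4 libraries was seen for 61. For a gene with no read, a count of 0 allows up to 0.163 and 0.118 CPM in the MI-OMU01 libraries and 0.184 and 0.183 CPM in the OP50 libraries. These limits and the intervals below cover the counting error of reads only and leave out the spread between libraries. The reads carry no molecular identifiers, so counts of reads are not counts of molecules.

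**Figure D1:**
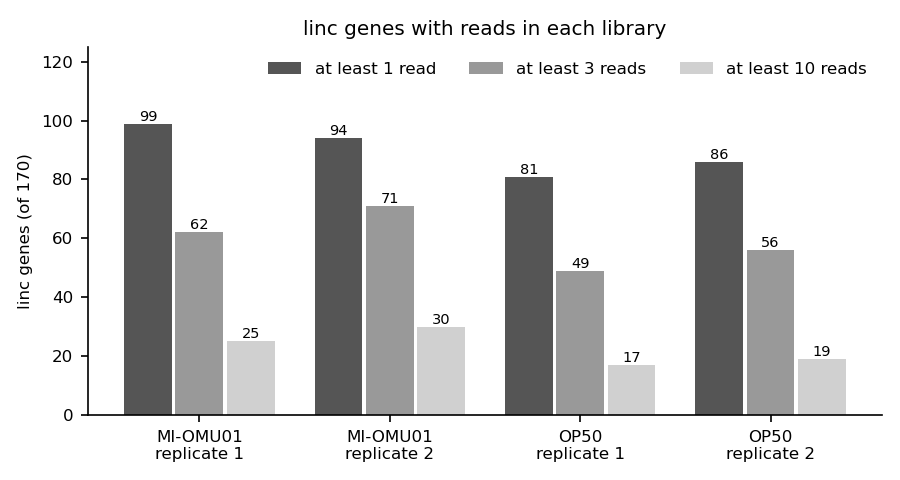
The bars give the number of linc genes, of 170, with at least 1, 3 and 10 reads in each of the 4 libraries (no error bars, 1 library per set of bars). At each minimum both MI-OMU01 libraries stand above both OP50 libraries, with 99 and 94 against 81 and 86 genes at 1 read. Over all listed genes the order at 1 read was the same.

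No linc gene was abundant in one group and silent in the other. Reads in MI-OMU01 libraries only were found for 23 linc genes, with at most 6 reads per gene, and reads in OP50 libraries only for 7, with at most 8 reads. Both MI-OMU01 libraries and no OP50 library held reads of 8 linc genes, and both OP50 libraries and no MI-OMU01 library held reads of 1. These counts were not adjusted for the larger read totals of the MI-OMU01 libraries. The same counts were not taken over all genes, so they are not read as a trait of the linc genes. Detected genes had a greater summed exon length than undetected ones, with medians of 485 and 372 bases. The nearest protein-coding gene had a median level of 11.02 CPM in MI-OMU01 and 9.77 CPM in OP50 where the linc gene was detected, and 6.20 CPM in MI-OMU01 and 7.89 CPM in OP50 where it was not. Chromosomes II and I had reads for 29 of 34 and 18 of 22 linc genes, and chromosome V for 16 of 33.

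Summed over all 170 genes, linc reads made up 129 (95% exact binomial interval 124 to 135) and 134 (130 to 139) CPM of the unscaled read totals in the MI-OMU01 libraries. In the OP50 libraries they made up 91.7 (87.2 to 96.4) and 102 (97.6 to 107) CPM. After scaling of the libraries by TMM, a method that aligns the bulk of the genes, the sums were 123 and 129 CPM in MI-OMU01 and 95.5 and 108 CPM in OP50. The groups did not overlap on either scale. In whole worms, more RNA per cell and more cells that make the RNA cannot be told apart. The 8 most read linc genes held 71.3% and 72.02% of the linc reads in MI-OMU01 and 76.2% and 74.2% in OP50.

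Sums of several other classes, though not of all, were also higher in both MI-OMU01 libraries. Pseudogenes summed to 4103 and 4074 CPM in MI-OMU01 and 3376 and 3552 CPM in OP50, with 77 of 410 tested called higher and 12 lower. The 57 antisense RNA genes named anr, which lie opposite other genes, summed to 20.5 and 17.6 CPM in MI-OMU01 and 14.9 and 14.4 CPM in OP50. Genes of piRNAs, small RNAs of the germ line whose loci should give few poly(A) reads, summed to 14.5 and 15.5 CPM in MI-OMU01 and 10.3 and 12.2 CPM in OP50. Genes of tRNAs, in contrast, overlapped, with 3.04 and 4.44 CPM in MI-OMU01 and 3.13 and 2.44 CPM in OP50. Among cell type markers, the 10 neuronal genes summed to 2380 and 2632 CPM in MI-OMU01 and 1630 and 1992 CPM in OP50, with 4 of 10 called higher (egl-3, egl-21, sbt-1 and ida-1, all of neuropeptide-releasing cells) and none lower. The remaining neuronal genes (unc-119, rab-3, snb-1, ric-4, unc-64 and snt-1) did not pass, with log2 fold changes from -0.0054 to 0.21. The 8 hypodermal genes summed to 816 and 828 CPM in MI-OMU01 and 1879 and 2046 CPM in OP50, with 6 of 7 tested called lower. The 8 muscle genes summed to 6433 and 7624 CPM in MI-OMU01 and 9153 and 10615 CPM in OP50, with 6 called lower and none higher. Of the 6 yolk genes, which encode the vitellogenins made in the intestine, 5 were called lower and vit-2 higher, and their sums overlapped between the groups. Of the 12 embryo genes 3 were called lower and 1 higher, and of the 7 intestinal genes found 3 were called higher and 1 lower. The sums of the intestinal genes were nevertheless lower in MI-OMU01, with 1614 and 1788 CPM against 1831 and 1924 CPM in OP50. The 12 sperm genes summed to 18.7 and 20.8 CPM in MI-OMU01 and 16.1 and 14.1 CPM in OP50, with 2 of 10 tested called higher and none lower. The part of these shifts in the linc values was not tested. Beside the counts of calls in these lists, 14.6% of all tested genes were called higher and 15.2% lower.

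In the test for a diet effect a gene needed about 0.573 CPM in at least 2 libraries, which 23 linc genes reached and 97 detected ones did not. The most read of those 97 had 36 reads in all. Of the 23, 15 stood at that level in all 4 libraries and 3 in both MI-OMU01 libraries and 1 OP50 library. A further 4 (linc-84, linc-12, linc-125 and linc-47) reached it in the MI-OMU01 libraries only and 1 (linc-72) in the OP50 libraries only, so that these 5 could enter only by being higher in 1 group. Mean levels of the 23 ran from 0.397 to 20.1 CPM with a median of 1.58, against a median of 15.1 CPM for all 14967 genes tested.

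Per kilobase of exon, the most abundant linc gene was linc-9, with 27.5 CPM per kb as a mean of the 4 libraries. It was followed by linc-11 at 15.97, linc-16 at 13.8, linc-20 at 12.8, linc-8 at 11.4, linc-15 at 10.3, linc-17 at 10.1, linc-7 at 8.03, linc-44 at 6.74 and linc-14 at 6.21 CPM per kb. The order differed by food below linc-9: in MI-OMU01 worms linc-16 came second with 19.3 CPM per kb and linc-11 followed with 18.9, whereas in OP50 worms linc-11 came second with 13.1 and linc-16 had 8.29 CPM per kb, below linc-20, linc-15, linc-17, linc-8 and linc-7. The median tested protein-coding gene stood at 12.04 CPM per kb, which 4 of the 23 linc genes exceeded. By reads alone linc-22, a gene of 4071 exon bases on chromosome X, came first. Across the 120 detected linc genes log2(CPM + 1) correlated at Pearson's r of 0.977 within MI-OMU01 and 0.976 within OP50, and at 0.957 to 0.960 between the groups, which is a description over genes that share libraries.

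**Figure D2:**
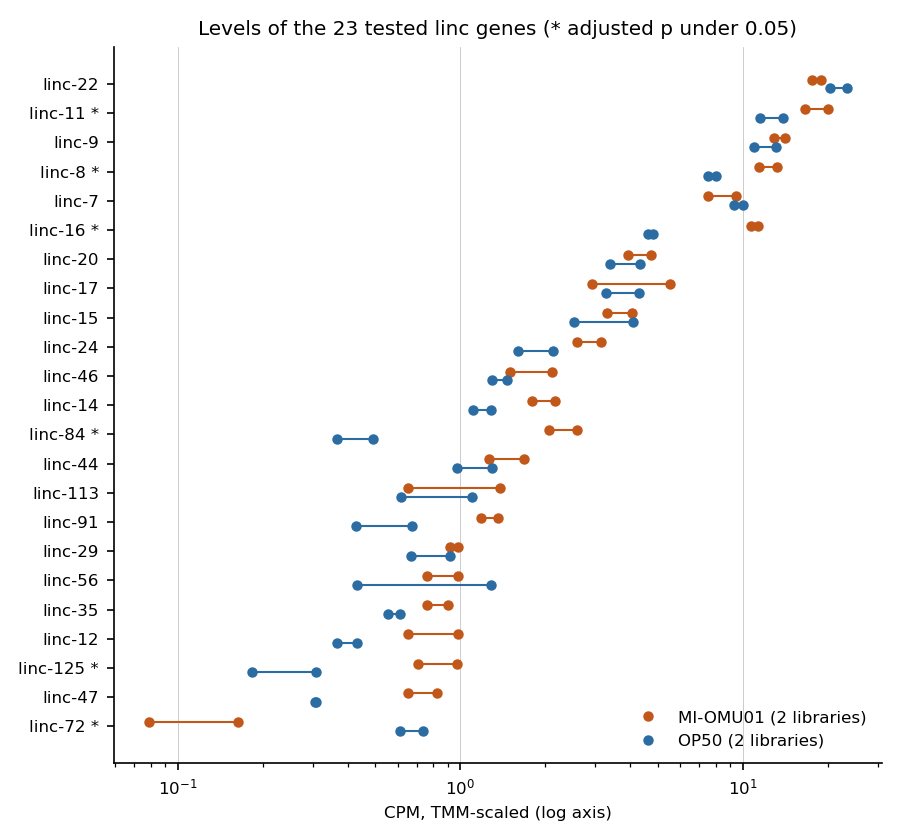
Each row is 1 of the 23 tested linc genes, ordered by mean level, with the TMM-scaled CPM of the 2 MI-OMU01 libraries above those of the 2 OP50 libraries on a log axis and a line joining the libraries of a group. Stars mark an adjusted p under 0.05. The MI-OMU01 pair lies to the right of the OP50 pair in 13 rows and to the left in linc-22 and linc-72.

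Called higher in worms fed MI-OMU01 than in worms fed OP50 were linc-84, linc-125, linc-16, linc-8 and linc-11, and linc-72 was called lower. Of these, linc-11, linc-125 and linc-72 did not pass in DESeq2 (adjusted p = 0.0633, 0.195 and 0.0965). In edgeR's quasi-likelihood test, adjusted over all genes, 5 of the 23 tested linc genes were called higher, beside 14.6% of all tested genes, and 1 was called lower, beside 15.2%. Among the 8250 other tested genes in the same range of mean CPM, 15.9% were called higher and 11.3% lower. Both MI-OMU01 libraries lay above both OP50 libraries in 13 of the 23, beside 33.2% of all tested genes, and below them in 2, beside 29.9%, so that 15 of 23 had groups that did not overlap, beside 63.1%. The median log2 fold change of the 23 was 0.37, beside 0.03 for all tested genes. Other genes of low level also had medians above 0, with 0.34 below 1 CPM, 0.19 from 1 to 5 CPM and 0.06 from 5 to 20 CPM, where 9, 8 and 5 linc genes had 0.52, 0.37 and 0.53. The remaining one, linc-22, lay just above 20 CPM and had -0.26. Since the filter admitted some members only through the group in which they were high, these figures describe the tested genes and not the family. With no filter, 84 of the 120 detected linc genes had a log2 fold change above 0 (70.0%, beside 54.2% of the 22417 genes with a read). Those 22417 genes were not matched to the linc genes by level, and 58 of the 120 had under 10 reads in all. The 2 shares are therefore not a like comparison.

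**Figure D3:**
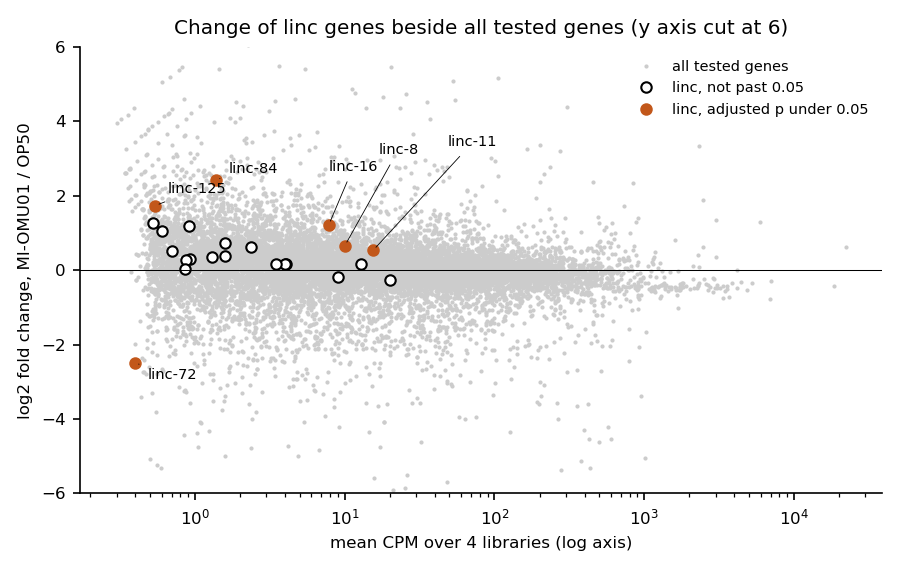
Points give each tested gene's mean CPM on a log axis and its log2 fold change of MI-OMU01 over OP50, in grey for all tested genes (values beyond 6 are not drawn) and as circles for the 23 linc genes. The 5 called higher and linc-72, called lower, are filled and named, and 20 of the 23 circles lie above 0.

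The clearest rise was that of linc-16. This gene of 3 exons (WBGene00219728, chromosome II, 1820242 to 1820946, minus strand) had 11.3 and 10.6 CPM in MI-OMU01 worms and 4.601 and 4.81 CPM in OP50 worms. The groups lay far apart relative to the spread within each, and the mean was 10.96 ± 0.443 CPM against 4.71 ± 0.149 CPM (SD, n = 2 each). It rose 2.32-fold (log2 fold change 1.22, SE 0.20, adjusted p = 9.59e-05 in edgeR). The call held in all 12 alternative analyses in which it was tested. Its nearest protein-coding gene is fbxc-19, an F-box gene that starts 80 bases away in the divergent direction. This neighbour had 3.74 and 3.54 CPM in MI-OMU01 and 2.52 and 2.56 CPM in OP50. The groups did not overlap there either, but the difference did not pass the test (log2 fold change 0.52, SE 0.27, adjusted p = 0.169 in edgeR).

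The largest rise in size was that of linc-84, a gene of 1 exon (WBGene00219592, chromosome I, 8865945 to 8866624, plus strand). It had 38 and 66 reads in the MI-OMU01 libraries and 8 and 6 reads in the OP50 libraries, or 2.06 and 2.59 CPM against 0.491 and 0.365 CPM. Both MI-OMU01 libraries stood several times above both OP50 libraries. Only the MI-OMU01 libraries reached the filter level for linc-84, so its entry into the test and the direction of its change were not independent. The fold was 5.41 (log2 fold change 2.44, SE 0.43, adjusted p = 0.000215 in edgeR), and the counting interval of the ratio of summed reads ran from 3.16 to 10.5. This call also held in all 12 alternatives. The gene F55H12.2 begins 283 bases downstream on the same strand and had 6.505 and 8.64 CPM in MI-OMU01 and 4.79 and 5.18 CPM in OP50. It rose 1.53-fold (adjusted p = 0.0448 in edgeR), but this call was lost without MI-OMU01 replicate 2 (adjusted p = 0.474) and without OP50 replicate 1 (0.132), in DESeq2 (0.146), with DESeq2's size factors (0.0559) and with no filter on low counts (0.0591).

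A smaller rise was found in linc-8 and linc-11, both spliced genes on the minus strand of chromosome II. The 5-exon gene linc-8 (WBGene00219707, 2501838 to 2503802) had 11.4 and 13.2 CPM in MI-OMU01 and 7.55 and 8.04 CPM in OP50. The groups did not overlap, and it rose 1.58-fold (log2 fold change 0.66, SE 0.18, adjusted p = 0.00963 in edgeR; 0.153 without MI-OMU01 replicate 2). Its divergent neighbour gbas-1, 1076 bases away, had 62.6 and 55.2 CPM in MI-OMU01 and 49.3 and 41.5 CPM in OP50 and rose 1.30-fold (adjusted p = 0.0293 in edgeR; 0.330 without MI-OMU01 replicate 1, 0.0598 without MI-OMU01 replicate 2, 0.137 without OP50 replicate 2 and 0.0726 in DESeq2). The 2-exon gene linc-11 (WBGene00219758, 3373169 to 3374185) had 16.5 and 20.1 CPM in MI-OMU01 and 11.5 and 13.8 CPM in OP50. Here too both MI-OMU01 values were the higher ones, by 1.45-fold (log2 fold change 0.53, SE 0.17, adjusted p = 0.0207 in edgeR; 0.304 without MI-OMU01 replicate 2, 0.127 without OP50 replicate 1 and 0.0633 in DESeq2). The neighbour of linc-11 is bath-10, a gene of the BATH family of ubiquitin ligase adaptors, 894 bases away and divergent. It had 7.70 and 6.40 CPM in MI-OMU01 and 7.18 and 5.85 CPM in OP50, and these groups overlapped (log2 fold change 0.11, adjusted p = 0.758 in edgeR).

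The pair with the strongest shared rise was linc-125 and aqp-1. The long gene linc-125 (WBGene00219686, chromosome II, 7238948 to 7242909, plus strand, 3224 exon bases) had 18 and 18 reads in the MI-OMU01 libraries and 5 and 3 reads in the OP50 libraries. The groups were apart, but on few reads, and linc-125 could enter the test only by being higher in MI-OMU01. It rose 3.33-fold (log2 fold change 1.73, SE 0.60, adjusted p = 0.0346 in edgeR), with a counting interval of 1.53 to 8.35, and the call was lost when any 1 library was left out (adjusted p from 0.0950 to 0.281), in DESeq2 (0.195) and with no filter (0.0528). The gene aqp-1, a water and glycerol channel of the intestine, starts 599 bases away in the divergent direction. It stood at 108 ± 2.32 CPM in MI-OMU01 and 29.7 ± 3.26 CPM in OP50 (SD, n = 2 each) and rose 3.64-fold (adjusted p = 5.41e-10 in edgeR).

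The only linc gene called lower was linc-72 (WBGene00219590, chromosome II, 8819812 to 8820154, plus strand). It had 3 and 2 reads in the MI-OMU01 libraries and 12 and 10 reads in the OP50 libraries, or 0.163 and 0.0786 CPM against 0.736 and 0.609 CPM. Both MI-OMU01 libraries lay below both OP50 libraries, and the gene could enter the test only by being higher in OP50. The fitted fall was 5.61-fold (log2 fold change -2.49, SE 0.71, adjusted p = 0.0114 in edgeR), and by summed reads the level in OP50 was 5.90 times that in MI-OMU01 with a counting interval from 2.18 to 19.95. The call was lost without any 1 of the libraries (adjusted p from 0.0601 to 0.216) and in DESeq2 (0.0965). Its neighbour F46C5.1 runs toward it on the opposite strand, and the tails of the genes share 6 exon bases. That gene moved the other way, with 19.6 and 25.7 CPM in MI-OMU01 and 0.675 and 0.974 CPM in OP50, a 27.3-fold rise (adjusted p = 4.601e-11 in edgeR). In the Ensembl annotation linc-72 spans 8819542 to 8820163, a longer span than the one counted.

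**Figure D4:**
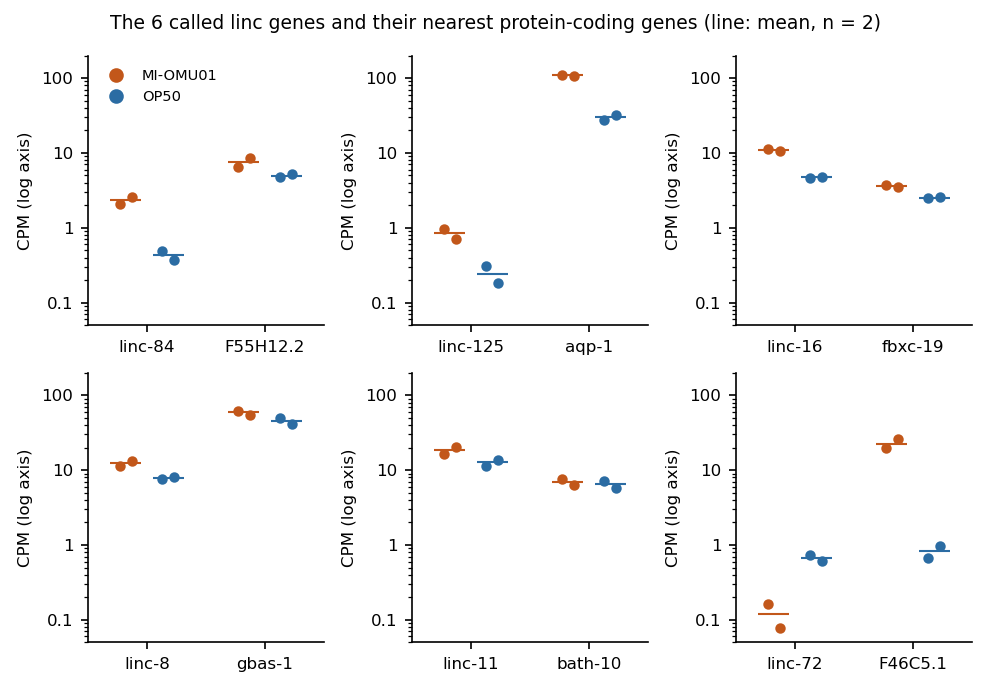
Each panel shows 1 of the 6 called linc genes and its nearest protein-coding gene, with the CPM of the 2 MI-OMU01 libraries to the left of the 2 OP50 libraries on a shared log axis and a line at the group mean (n = 2). In edgeR, gene and neighbour were both called higher in MI-OMU01 for linc-84, linc-125 and linc-8. Of these pairs F55H12.2, linc-125 and gbas-1 did not pass in DESeq2. For linc-16 and fbxc-19 both groups lie apart in the same direction but fbxc-19 did not pass the test, while linc-72 is lower beside a 27.3-fold higher F46C5.1.

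The other tested linc genes did not pass. Closest were linc-91, with 1.36 and 1.18 CPM in MI-OMU01 and 0.675 and 0.426 CPM in OP50 (log2 fold change 1.19, SE 0.46, adjusted p = 0.0612 in edgeR), and linc-47, with 0.650 and 0.825 CPM in MI-OMU01 and 0.307 and 0.304 CPM in OP50 (log2 fold change 1.27, SE 0.57, adjusted p = 0.106). Both had groups that did not overlap. Their neighbours chd-7, 1035 bases from linc-91, and ZK930.6, 1164 bases from linc-47, had log2 fold changes of -0.11 and 0.18 and did not pass. When libraries were scaled by their total counts, linc-91 passed (adjusted p = 0.0332). The genes linc-14, linc-24 and linc-12 had log2 fold changes of 0.74, 0.61 and 1.05 with adjusted p-values of 0.140, 0.153 and 0.157 in edgeR. Their neighbours are C18D4.6 at 799 bases (log2 fold change 0.30, not past the test), Y82E9BR.20 at 2584 bases (too few reads to test) and F34D6.1 at 190 bases (log2 fold change 0.0063, not past the test).

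Several of the most abundant members showed no difference beyond the spread. The top gene per length, linc-9, had 14.1 and 12.9 CPM in MI-OMU01 and 10.98 and 13.1 CPM in OP50 (log2 fold change 0.16, SE 0.17, adjusted p = 0.524 in edgeR), and these values overlapped. Its convergent neighbour F21A9.2 had a higher mean, with a log2 fold change of 0.61 that did not pass (adjusted p = 0.0981; 0.0356 when scaled by total counts, 0.0425 with the replicate number as a block and 0.0318 without OP50 replicate 2). The single-exon gene linc-7 had 9.43 and 7.54 CPM in MI-OMU01 and 9.999 and 9.32 CPM in OP50 (log2 fold change -0.19, SE 0.19, adjusted p = 0.504), and its neighbour C09G1.4, 5663 bases away, did not pass (log2 fold change 0.035, adjusted p = 0.906). For linc-22 the values were 17.5 and 18.98 CPM in MI-OMU01 and 20.4 and 23.4 CPM in OP50 (log2 fold change -0.26, SE 0.15, adjusted p = 0.210), so its groups were apart but the difference did not pass. The gene F47E1.1 begins 65 bases downstream of linc-22 and did not pass either (log2 fold change -0.40, adjusted p = 0.584). The genes linc-20, linc-17 and linc-15 each had overlapping groups and log2 fold changes of 0.16, 0.18 and 0.16 with standard errors of 0.25, 0.29 and 0.28. The neighbours of linc-20 and linc-17, T25D1.3 at 670 bases and Y49F6A.12 at 387 bases, had too few reads to test. The gene linc-15 lies within the span of ucr-2.1, a subunit gene of mitochondrial complex III, on the opposite strand, and that gene itself did not pass (ucr-2.1, log2 fold change 0.09, adjusted p = 0.593). The gene linc-44 stood at 1.47 ± 0.299 CPM in MI-OMU01 and 1.13 ± 0.222 CPM in OP50 (SD, n = 2 each, adjusted p = 0.548), and its divergent neighbour K05F1.6, 411 bases away, did not pass (log2 fold change 0.22, adjusted p = 0.296).

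The known regulatory pair could not be tested on the linc side. For linc-73 there were 9 and 11 reads in the MI-OMU01 libraries and 2 and 8 reads in the OP50 libraries, at 0.488 and 0.432 CPM against 0.123 and 0.487 CPM, and the groups overlapped. The motor gene unc-104 starts 625 bases downstream on the same strand. It had 95.8 and 105 CPM in MI-OMU01 and 95.3 and 132 CPM in OP50 (log2 fold change -0.18, SE 0.13, adjusted p = 0.338 in edgeR). Its value followed the OP50 library used, with a log2 fold change of -0.44 (adjusted p = 0.000699) without OP50 replicate 1 and 0.074 (adjusted p = 0.684) without OP50 replicate 2.

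Among the 97 detected but untested linc genes, 58 had under 10 reads in all. Of the 39 with at least 10 reads, 11 had both MI-OMU01 libraries above both OP50 libraries and 3 had them below. Over all tested genes, a set with more reads per gene, these shares were 33.2% and 29.9%. The shares over other untested genes were not counted. Named here after their values were seen, linc-103 had 6 and 19 reads in MI-OMU01 and 1 and 1 in OP50, and linc-107 had 1 and 0 reads in MI-OMU01 and 9 and 4 in OP50. Both passed in edgeR when no filter was used (adjusted p = 0.0153 and 0.0279). On so few reads their folds have little precision. The neighbour of linc-107, C30G12.2, is divergent at 2560 bases and was also lower, with means of 5.16 CPM in MI-OMU01 and 14.4 CPM in OP50 (log2 fold change -1.50, SE 0.20, adjusted p = 1.06e-05 in edgeR). The neighbour of linc-103, W05H9.4, lies 4672 bases away and did not pass (log2 fold change 0.012, adjusted p = 0.962). The reads of untested linc genes together gave 14.5 and 13.9 CPM in MI-OMU01 and 9.45 and 11.997 CPM in OP50, so both MI-OMU01 sums were the higher ones.

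Nearest protein-coding genes were called about as often as other protein-coding genes. The 170 linc genes had 167 different nearest protein-coding genes, of which 131 were tested, with 18 higher and 18 lower in MI-OMU01, beside 14.4% and 15.6% of all tested protein-coding genes, and a median log2 fold change of -0.03. Of the 23 tested linc genes, 20 had a tested neighbour, and 5 of these neighbours were called higher and none lower in edgeR. Of the 6 called linc genes, 3 had a neighbour called in the same direction in edgeR (F55H12.2, aqp-1 and gbas-1) and 1 in the opposite direction (F46C5.1). With the nearest gene on the same strand instead, 1 of 6 had a neighbour called in the same direction. In none of these pairs did both genes pass in DESeq2. There F55H12.2 (adjusted p = 0.146), gbas-1 (0.0726), linc-125 beside aqp-1 (0.195) and linc-72 beside F46C5.1 (0.0965) did not pass. The fifth called neighbour, math-44 of the MATH family, lies 25 bases from the end of linc-46 and averaged 3.98 CPM in MI-OMU01 and 1.19 CPM in OP50 (log2 fold change 1.74, SE 0.32, adjusted p = 0.000302), while linc-46 did not pass (log2 fold change 0.37, adjusted p = 0.501). It was named after its value was seen.

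Across the 20 pairs the signs of the log2 fold changes were the same in 16. Of the 23 tested linc genes 20 lay above 0, and the median of the 20 neighbours was 0.20. Unrelated genes with such values would also often share a sign, and the number to be expected was not worked out. Pearson's r between linc gene and neighbour was -0.51 and Spearman's rho 0.14. Without linc-72 the 19 remaining pairs gave 0.35 and 0.33, so the negative r rested on that pair. These values describe pairs that share libraries and scaling.

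**Figure D5:**
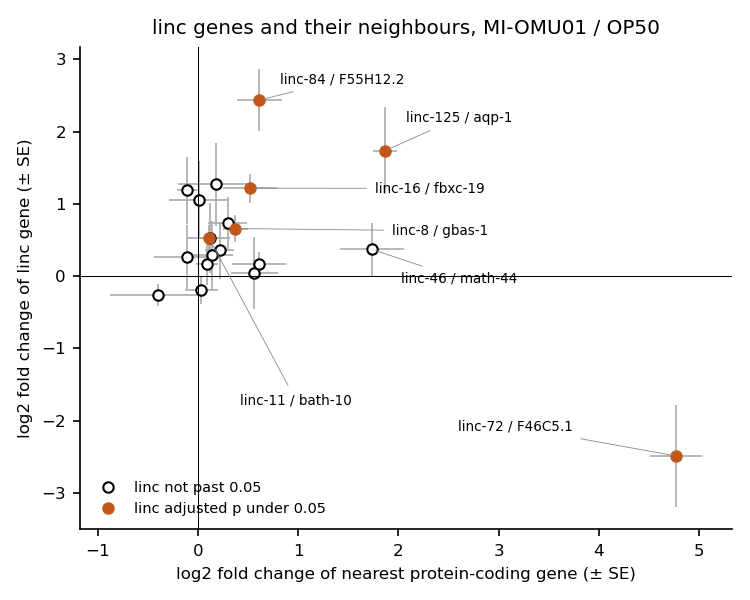
Each point is 1 of the 20 tested linc genes with a tested nearest protein-coding gene, with the log2 fold change of MI-OMU01 over OP50 of the neighbour on the horizontal axis and of the linc gene on the vertical axis (bars, SE). Most points lie near the origin, linc-125 and aqp-1 are both high, and linc-72 and F46C5.1 stand alone at lower right.

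The other long non-coding RNAs gave a mixed picture. Of the 57 anr antisense genes 41 had a read and 7 were tested. None of these was called in either direction in edgeR, DESeq2 or limma-voom, beside 29.7% of all tested genes called in edgeR. At an unadjusted p under 0.05, 1 was higher in edgeR, 0 in DESeq2 and 1 in limma-voom. All 3 better known long non-coding RNAs rose, beside 14.6% of all tested genes called higher. The X-linked gene lep-5, which times male tail development, had 12.8 and 11.5 CPM in MI-OMU01 and 4.54 and 4.26 CPM in OP50 and rose 2.75-fold (adjusted p = 1.21e-05 in edgeR). The Dicer-binding RNA rncs-1 had 7.81 and 8.80 CPM in MI-OMU01 and 3.62 and 3.96 CPM in OP50 and rose 2.19-fold (adjusted p = 0.000543). The ribosome-associated RNA tts-1 stood above every linc gene, at 368 and 370 CPM in MI-OMU01 and 61.2 and 62.1 CPM in OP50 (5.99-fold, adjusted p = 7.69e-13). A further 16 genes, lep-5 among them, are typed as long intergenic RNA but carry other names. Of 8 tested 3 were higher and 1 lower, beside 14.6% and 15.2% of all tested genes.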

How the data were processed

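The deposited files hold raw whole-number counts of reads per gene, 1 file per library. Per the labels' protocols, the kit was a stranded one applied to poly(A)-selected RNA. The submitters' processing notes list featureCounts 1.6.4 and STAR 2.7.2b beside the trimming tools cutadapt 2.7, Trimmomatic 0.39 and Trim Galore 0.6.5, with WBcel235 and ce11 as builds. Not given in the sources used here are the strand setting, the annotation release and the handling of reads with several matches. The values show strands kept apart: of 1786 single-exon genes lying inside an exon of the opposite strand, 214 had reads where the covering gene had none. Coordinates are those of the files (1-based), and gene types come from the Ensembl 115 annotation of WBcel235, which gives the same span for 169 of the 170 linc genes and types 169 as lincRNA. No genome sequence was used here, so no sequence is shown.

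The test was edgeR 4.0.16 in R 4.3.3 (filterByExpr with minimum count 10 and minimum total 15, TMM scaling, robust quasi-likelihood fit with the group as its only term), on all genes, and adjusted p-values (Benjamini-Hochberg) under 0.05 were taken as calls. TMM factors were 1.05 and 1.04 for MI-OMU01 and 0.962 and 0.948 for OP50. CPM values are TMM-scaled unless said to be of the unscaled totals. SE is the log2 fold change over the square root of F. Libraries of a group differed beyond sampling noise (chi-square per gene 9.91 in MI-OMU01 and 11.3 in OP50). The neighbour is the protein-coding gene with the smallest gap between spans. On simulated counts for this comparison (14719 genes, 200 changed), 46.9% of the genes changed 1.5-fold were found, 77.9% of those changed 2-fold and 100% of those changed 4-fold. False calls numbered 18. Of the 61 changed genes below 5 CPM, where most linc genes lie, 45.9% were called, over all folds and in either direction. In the data 29.7% of the tested genes were called, a far larger share than was changed in the simulation. The rates found and the false calls of the real test may therefore differ.

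Named by rule were linc genes past the threshold, the 10 most abundant per length, linc-73, the nearest neighbours of these, and tts-1, rncs-1 and lep-5, 31 genes in all. The members and lists were chosen with earlier results of these data known. Of the marker list for intestine 1 name (opt-2) had no match.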

Additional observations from a re-analysis of the deposited data

How the results depend on the processing

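The 5 higher and 1 lower linc genes of the edgeR test were 5 and 1 with DESeq2 size factors and with limma-voom. In DESeq2 they were 3 and 0 (1 lower at an unadjusted p under 0.05). With a minimum of 1 CPM they were 4 and 0 (0 unadjusted, since linc-72 was then not tested). They were 5 and 2 with no filter, 2 and 1 against a fold of 1.5, and 6 and 1 with total counts as library sizes. Among linc genes sharing no exon with another gene 3 and 0 remained. That count used the same edgeR fit and only took linc-11, linc-8 and linc-72 off the list. The genes that linc-11 and linc-8 overlap, by 21 and 19 bases, had no reads. With 1 library left out, the higher genes numbered 2 to 5 and the lower 0 (at an unadjusted p 0 to 2), and the group with 1 library was assumed to vary like the other. The median log2 fold change of 0.37 over 23 linc genes was 0.50 over 23 with total counts (0.16 for all genes then). It was 0.46 over 120 linc genes with no filter (0.06 for all genes with a read) and 0.40 to 0.71 over 27 to 30 with a library left out. With no filter or a library left out the set of linc genes was another one, so those medians are not a like comparison.

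A minimum of 3 reads left 62 and 71 linc genes in the MI-OMU01 libraries and 49 and 56 in OP50, and 10 reads left 25 and 30 against 17 and 19. With the nearest gene on the same strand, 1 called linc gene had a neighbour called in its direction, and 4 did when overlapping genes were passed over. These counts use the edgeR calls.

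The log2 fold change of genes not past the threshold changed sign in some analyses. With no filter it was -0.0060 for C09G1.4 and -0.00051 for linc-56. With a library left out it ran from -0.12 to 0.16 for C09G1.4, -0.033 to 0.24 for bath-10, -0.39 to 0.76 for linc-113, -0.18 to 0.56 for linc-15, -0.37 to 0.53 for linc-17, -0.048 to 0.35 for linc-20, -0.57 to 1.02 for linc-56, -0.059 to 0.21 for ucr-2.1 and -0.44 to 0.074 for unc-104. The cause was not tested.

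Same-numbered libraries deviated together only weakly (Pearson's r 0.14 over 14967 genes), and the labels do not say that a number marks a shared batch. With the replicate number as a block 6 linc genes were higher and 1 lower, with a median of 0.37, and linc-91 and the neighbour F21A9.2 passed. Calls over all 14967 tested genes also rose with the block, from 4449 to 5807, so a gain in calls was not particular to the linc genes.

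The test covered 23 of 170 linc genes: 97 had reads but too few for it, and 50 had none, for which a low level and no poly(A) transcript cannot be told apart.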
